A study of Mus musculus with 12 samples.

Results

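The genes described here make cholesterol and fatty acids, with 4 genes that regulate the pathway or carry its product. They were taken by name from a given list of 29. No measured value enters that rule, but the genes were chosen with earlier results of these data known. Of the 29, 28 were found among the 54537 genes of the deposited table, and Mvd, a mevalonate pathway enzyme, was not analysed here. Mouse embryonic stem cells of 2 lines were profiled, labelled WT and WT+1343KO-a14 (called 1343KO below), at days 0, 8 and 16, with 2 libraries per line and day and 12 in all. Day 0 is taken here, from the protocols, as the stem cells grown on gelatin with serum and leukemia inhibitory factor (LIF), and the later days as embryoid bodies, cell aggregates kept in suspension without LIF and with less serum. Day and medium therefore cannot be told apart. The study knocked out long noncoding RNAs, and its title is about which of them stem cells need to keep or to leave pluripotency, with SNORA73 named for the exit. Neither the gene behind the name 1343KO nor the meaning of the prefix WT+ is given in the labels. No other 1343KO line is among these samples, so the knockout and its line cannot be told apart. Separate cultures are not stated for the 2 libraries of a group, and the p-values then cover no more than the spread of these libraries, which may be a technical one.

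Cholesterol is built from acetyl-CoA. The mevalonate pathway yields farnesyl pyrophosphate, squalene synthase joins farnesyl units into squalene, and a chain of microsomal enzymes turns squalene through lanosterol into cholesterol. Fatty acids start from the same acetyl-CoA, which is carboxylated, extended to palmitate, elongated and desaturated. The transcription factors SREBP2 (Srebf2) and SREBP1 (Srebf1) drive the genes of both routes. They are made as membrane precursors bound to SCAP. When sterol in the endoplasmic reticulum is low, SCAP carries them to the Golgi, where proteases release the active factor, and INSIG proteins hold the complex back when sterol is plentiful.

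Levels are FPKM (fragments per kilobase of transcript, scaled to the depth of the library), as deposited. A change or difference is given in log2 units of FPKM + 1 with its standard error (SE), from limma fitted to 16289 genes in all 12 libraries. The adjusted p is Benjamini-Hochberg over those genes, and below 0.05 a gene is said to have passed. An exact permutation test of 2 libraries against 2 cannot go below p = 0.333. The table holds no counts. The spacing of its low values gave an approximate depth of 4825000 to 7900000 fragments per library, and the member value with the fewest fragments behind it, one of Ebp, rested on about 44.4. Snhg3, the host gene of the Snora73 snoRNAs, stood at 8.31 to 61.1 FPKM in the 6 WT libraries and at 0 to 1.57 FPKM in the 6 1343KO libraries. Against the cell type label, the 8 pluripotency markers summed to 1965 to 1971 FPKM in WT and 2096 to 2178 FPKM in 1343KO at day 0. All 8 were above 1 FPKM in both libraries of every group, later days included, so their presence alone does not mark day 0. Genes of other marker lists were also detected at day 0. Among them were Cubn of the visceral endoderm list (15.9 and 15.4 FPKM in WT) and Pdgfra of the fibroblast list (9.87 and 8.89 FPKM). Which cells they came from was not tested. No member was at 0 in any library, and the member values ran from 3.10 to 310.9 FPKM.

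In WT, most of these genes rose between the stem cell stage and day 8. In 1343KO few did, a share near that of all tested genes that rose there. In WT, 21 of 28 members rose from day 0 to day 8 and 2 fell, against 26.8% of all tested genes higher and 24.5% lower. The median change of the members was 0.76 on the log2 scale, and that of all tested genes 0.00. In 1343KO over the same days 4 of 28 rose and 5 fell, against 15% of all tested genes higher and 8.51% lower (23.5% in either direction), with a median of 0.05 for the members and 0.07 for all genes. Other scalings moved the split of all genes in 1343KO from 2441 higher and 1387 lower to 2040 and 1848 (median of ratios) or 1991 and 1749 (TPM). The 16 sterol enzymes together stood at 479 and 495 FPKM (summed) in the WT stem cells, 930 and 962 at day 8 and 757 and 725 at day 16. The same sum in 1343KO was 415 and 380 FPKM at day 0, 441 and 391 at day 8 and 444 and 438 at day 16. No 1343KO library reached the lowest WT library. In these bulk samples, fewer cells of a type and less RNA per cell cannot be told apart.

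**Figure D1:**
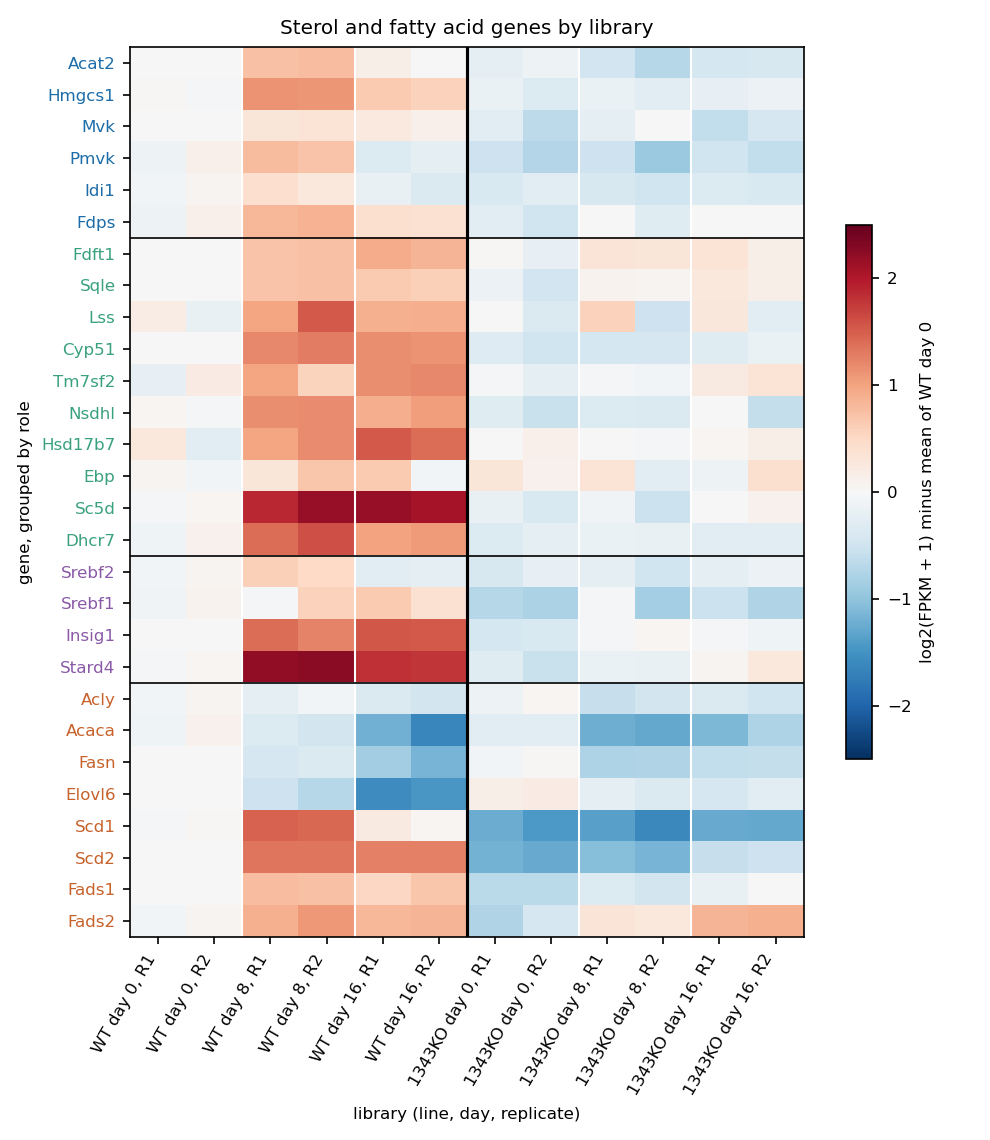
Each member (rows, grouped by role and coloured by it) in each library (columns): log2(FPKM + 1) minus the mean of the 2 WT day 0 libraries of that gene. Most sterol rows and Insig1, Stard4, Scd1 and Scd2 are red in WT at day 8, with Sc5d and Stard4 the deepest; Hmgcs1, Cyp51, Sc5d, Scd1 and Scd2 are near 0 or below it in 1343KO, and Fads2 is red there at day 16.

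Summed markers of several cell types differed by day and line. Summed visceral endoderm markers (9 genes, among them Afp and Rbp4, secreted carrier proteins of the yolk sac) stood at 91.2 to 105 FPKM in the WT libraries of day 0, at 2343 to 2428 FPKM at day 8 and at 11477 to 11531 FPKM at day 16. In 1343KO they stood at 68.5 to 89.6, 129 to 147 and 83.5 to 93.8 FPKM at those days. Afp alone read 631 and 659 FPKM in WT at day 8 and 8246 and 8139 FPKM at day 16. Of the 9 genes, 4 rose in WT from day 8 to day 16, 1 fell and 4 did not pass. Of all tested genes 14.1% were higher and 13.5% lower in that step. Pluripotency markers stood at 102 to 105 FPKM in WT at day 8 and at 69.3 to 75.5 FPKM at day 16, against 1302 to 1314 and 1141 to 1160 FPKM in 1343KO. Fibroblast markers (7 genes) reached 3826 to 3944 FPKM in WT at day 16 against 48.2 to 53.2 FPKM in 1343KO, and macrophage markers (7 genes) 216 to 225 FPKM against 2.48 to 3.15 FPKM. Embryonic blood markers (6 genes) stood at 1059 to 1179 FPKM in WT at day 8 and at 2.31 to 5.35 FPKM in 1343KO. Of 5 hepatocyte markers none reached 1 FPKM in both libraries of any group, and 3 of 6 adipocyte markers (Adipoq, Plin1 and Lep) were at 0 at days 8 and 16 in both lines. The other 3 (Fabp4, Pparg and Cidec) rose in WT from day 0 to day 16, and Fabp4 and Cidec were lower in 1343KO at day 16. Fabp4 then read 25.7 and 18.4 FPKM in WT and 0 and 0.251 FPKM in 1343KO, and the 6 markers summed to 23.5 to 40.9 FPKM and 2.53 to 5.46 FPKM. The part of these cell types in the results was not tested.

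The mevalonate enzymes rose in WT to day 8 and fell back by day 16. Of 6 measured, 5 rose from day 0 to day 8 in WT (26.8% of all tested genes). From day 8 to day 16, 5 fell in WT (13.5% of all tested genes). Hmgcs1 (chr13:119690379-119708260), which makes HMG-CoA, had the highest levels among the 6 enzymes. It read 108.7 and 103.5 FPKM in WT at day 0, 232 and 230.2 at day 8, and 168 and 159 at day 16. On these days in 1343KO it read 94.0 and 83.2, 94.4 and 86.8, and 91.4 and 96.0 FPKM. All 1343KO libraries lay below all WT libraries, and the 6 1343KO values ran from 83.2 to 96.0 FPKM. The WT change to day 8 was 1.12 (SE 0.08, adjusted p = 2.5e-06), and the 1343KO change was 0.03 (SE 0.08, adjusted p = 0.809). Between days 8 and 16 Hmgcs1 fell in WT by 0.50 on the log2 scale (SE 0.08, adjusted p = 0.00117).

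Acat2, the cytosolic thiolase that makes acetoacetyl-CoA, rose in WT and fell in 1343KO. Its values were 47.5 and 47.7 FPKM in WT at day 0, 79.3 and 82.5 at day 8 and 52.5 and 48.2 at day 16. Its values in 1343KO were 40.8 and 43.5, then 34.1 and 28.8, then 34.7 and 35.9 FPKM. The change to day 8 was 0.75 in WT (SE 0.09, adjusted p = 0.000104) and -0.41 in 1343KO (SE 0.09, adjusted p = 0.0105). Pmvk, which phosphorylates phosphomevalonate, rose in WT from 17.2 and 20.7 to 33.4 and 31.5 FPKM and stood at 14.7 and 15.8 FPKM at day 16, below its start in every library. Its 6 1343KO values ran from 9.40 to 13.0 FPKM, with no overlap with WT. Fdps, which makes farnesyl pyrophosphate, rose by 0.85 in WT (adjusted p = 0.000254), and Idi1, the isopentenyl isomerase, by 0.35 (adjusted p = 0.0102). Mvk, mevalonate kinase, was the 1 that did not pass, at 0.32 in WT (SE 0.15, adjusted p = 0.112) and 0.34 in 1343KO (SE 0.15, adjusted p = 0.151). Idi1 lost its WT call to day 8 without WT day 0 R1 or WT day 8 R1 (adjusted p 0.0701 and 0.0797). Acat2 lost its 1343KO call without 1343KO day 0 R2 or day 8 R2 (0.0647 and 0.0672).

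The enzymes from squalene synthase to cholesterol rose in WT to day 8, and most did not pass in the step to day 16. Of 10, 9 rose from day 0 to day 8 in WT (26.8% of all tested genes). From day 8 to day 16, 1 fell (Dhcr7, -0.47, SE 0.10, adjusted p = 0.0084), which is near the 13.5% of all tested genes. At day 16, 9 stood higher than at day 0 (32.7% of all tested genes). Whether these enzymes differ from the mevalonate enzymes in the step to day 16 was not tested. Sc5d, the sterol C5-desaturase near the end of the route (chr9:42251595-42264256), changed most. It read 10.4 and 11.1 FPKM in WT at day 0, 42.5 and 52.2 at day 8, and 51.9 and 48.8 at day 16. Its 1343KO libraries read 9.35 and 7.96, 10.0 and 7.08, and 10.7 and 11.6 FPKM. The WT libraries of days 8 and 16 stood clear of the other 8 libraries, which ran from 7.08 to 11.6 FPKM. The WT change to day 8 was 2.03 (SE 0.16, adjusted p = 6.92e-06), and the 1343KO change -0.03 (SE 0.16, adjusted p = 0.938).

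Dhcr7, which makes the last reduction to cholesterol, read 22.9 and 26.5 FPKM in WT at day 0, 66.2 and 77.3 at day 8 and 50.6 and 52.3 at day 16. Its 6 1343KO values ran from 19.2 to 22.01 FPKM. Cyp51, the lanosterol demethylase (chr5:4081145-4104746), read 22.8 and 22.5 FPKM in WT at day 0, 53.3 and 56.6 at day 8 and 51.8 and 50.5 at day 16. Its 1343KO values were 17.8 and 15.8, 16.5 and 16.8, and 18.3 and 20.2 FPKM. Both genes were below WT in every 1343KO library of the same day. The WT mean of Dhcr7 at day 8 was 2.90 times that at day 0 (adjusted p = 2.68e-06), and the WT change of Cyp51 was 1.24 (SE 0.09, adjusted p = 3.86e-06). Hsd17b7, the 3-keto sterol reductase, was the member with the lowest level: 4.97 and 3.10 FPKM in WT at day 0, 8.83 and 10.2 at day 8, and 13.3 and 12.1 at day 16. Its 1343KO values ran from 3.83 to 4.51 FPKM at all days.

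Fdft1 (squalene synthase) and Sqle (squalene epoxidase) rose in both lines. By day 8 Fdft1 had risen by 0.72 in WT (adjusted p = 0.000246) and 0.42 in 1343KO (adjusted p = 0.0157), and Sqle by 0.72 (adjusted p = 0.000381) and 0.40 (adjusted p = 0.0255). Both 1343KO calls ended without 1343KO day 0 R2, day 8 R1 or day 8 R2 (adjusted p 0.0607 to 0.132), and that of Sqle also under both other scalings (0.0661 and 0.062). Lss (lanosterol synthase), Tm7sf2 (a sterol C14-reductase) and Nsdhl (a sterol C4-dehydrogenase) rose in WT by 1.26, 0.77 and 1.18, with adjusted p of 0.0126, 0.00393 and 0.00051. None of the 3 passed in 1343KO, where their changes were 0.20, 0.07 and 0.07 (adjusted p 0.73 to 0.838). Ebp, the sterol isomerase, passed in no comparison, and its WT day 16 libraries read 12.2 and 6.94 FPKM. Without WT day 0 R2 or WT day 8 R2 the WT rise of Lss did not pass (adjusted p 0.0757 and 0.0901). The counting strand is not given in the sources used here. Tm7sf2 shares 12.08% of its exonic bases with Vps51 and Fdps 26.71% with Gm43738, both on the same strand. On the opposite strand, Fdft1 shares 18.31% with Ctsb, Hmgcs1 12.12% with Gm48342 and Idi1 9.22% with Gm48574. These levels are uncertain, and smaller shares of other members are not listed.

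**Figure D2:**
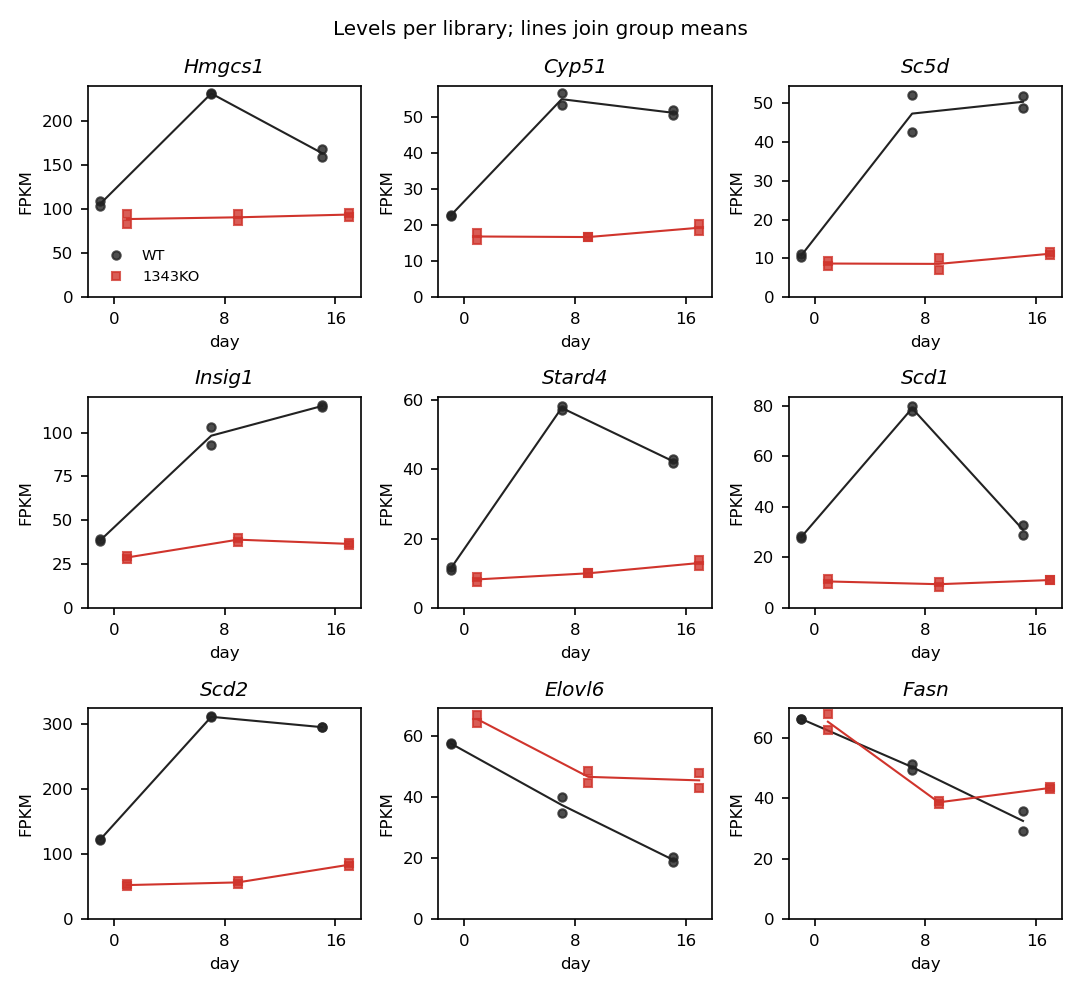
FPKM (y axis, from 0) by day (x axis, the lines drawn slightly apart) for 9 members; points are libraries and lines join the group means of WT (black circles) and 1343KO (red squares). Hmgcs1, Cyp51, Sc5d, Insig1, Stard4, Scd1 and Scd2 climb in WT at day 8 and stay low in 1343KO, while Elovl6 and Fasn are lower at days 8 and 16 than at day 0 in both lines.

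The promoters of the members were read for description, whatever the direction of their change. RefSeq promoter windows (GRCm38.p6) were found for 21 members, with 26 windows. None was found for Fdps, Fdft1, Sqle, Stard4, Scd1, Scd2 or Fads1. The windows of Acly, Acaca, Fasn and Elovl6, which fell, are included, so the shares do not describe members that moved together. The 250 bases before each RefSeq start were searched on both strands. The sterol regulatory element TCACNCCAC was in 1 window (3.8%) against 1.05% of all 32851 windows. The NF-Y box CCAAT was in 17 of 26 windows (65.4%) against 33.85%, the GC box GGGCGG in 19 (73.1%) against 32.74%, and the E-box CACGTG in 4 (15.4%) against 6.02%. No 2 matches of different motifs overlapped. These are matches of letters, not binding sites. Shown are Hmgcs1, the 1 window with the sterol element, Insig1 and Sc5d, whose WT rises were among the largest, and Elovl6, which fell and has none of the 4 motifs. Capitals mark matches on either strand, so that CCAAT can read ATTGG and GGGCGG can read CCGCCC. The windows lie at chr13:119690101-119690350 (+), chr5:28071162-28071362 (+), chr9:42264301-42264550 (-) and chr3:129532136-129532354 (+), each written 5′ to 3′ along its gene. The RefSeq starts of Insig1 and Elovl6 lie inside the genes as the deposited table places them, and the last 49 and 31 bases of their windows, which hold none of the matches, are left out.
Hmgcs1: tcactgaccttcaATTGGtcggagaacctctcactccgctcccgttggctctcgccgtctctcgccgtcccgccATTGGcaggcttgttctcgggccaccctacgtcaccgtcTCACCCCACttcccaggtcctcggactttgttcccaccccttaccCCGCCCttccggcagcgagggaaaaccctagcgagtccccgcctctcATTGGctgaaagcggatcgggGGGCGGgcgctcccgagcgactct
Insig1: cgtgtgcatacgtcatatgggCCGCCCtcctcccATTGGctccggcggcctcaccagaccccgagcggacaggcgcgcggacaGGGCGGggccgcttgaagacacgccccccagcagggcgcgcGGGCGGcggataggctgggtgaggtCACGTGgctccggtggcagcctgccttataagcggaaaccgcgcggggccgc
Sc5d: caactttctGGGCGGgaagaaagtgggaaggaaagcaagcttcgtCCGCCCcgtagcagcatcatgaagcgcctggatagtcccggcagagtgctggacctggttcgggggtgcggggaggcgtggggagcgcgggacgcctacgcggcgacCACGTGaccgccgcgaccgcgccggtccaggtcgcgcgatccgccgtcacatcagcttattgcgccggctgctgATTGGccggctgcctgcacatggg
Elovl6: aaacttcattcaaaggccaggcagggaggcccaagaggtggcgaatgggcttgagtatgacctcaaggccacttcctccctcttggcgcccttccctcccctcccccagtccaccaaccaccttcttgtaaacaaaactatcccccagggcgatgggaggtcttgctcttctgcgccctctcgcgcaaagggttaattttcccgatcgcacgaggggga

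Of the 4 regulators and carriers, Stard4, Insig1 and Srebf2 rose in WT to day 8 and Srebf1 did not pass. Stard4, a cytosolic sterol carrier, read 11.1 and 11.8 FPKM in WT at day 0, 57.0 and 58.2 at day 8, and 42.8 and 41.8 at day 16. On these days in 1343KO it read 9.07 and 7.44, 10.0 and 10.0, and 12.1 and 13.9 FPKM. Its mean in WT at day 8 was 5.04 times that at day 0, the widest WT span of any member. Insig1 (chr5:28071363-28078662) retains the SREBP complex and is itself an SREBP target. In WT it read 38.2 and 39.2 FPKM at day 0, 103 and 93.1 at day 8 and 116 and 114 at day 16. Its 1343KO libraries read 28.2 and 29.4, 37.9 and 40.0, and 37.2 and 35.9 FPKM. The WT changes to day 8 were 2.24 for Stard4 (SE 0.11, adjusted p = 4.09e-07) and 1.32 for Insig1 (SE 0.07, adjusted p = 7.44e-07). Insig1 also rose in 1343KO, by 0.42 (SE 0.07, adjusted p = 0.00318), while Stard4 did not pass there at day 8 (0.26, SE 0.11, adjusted p = 0.136) and did at day 16 (0.60, SE 0.11, adjusted p = 0.00434).

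Srebf2, the gene of SREBP2, read 59.0 and 64.1 FPKM in WT at day 0, 93.6 and 87.5 at day 8 and 50.5 and 51.7 at day 16. The 1343KO libraries stayed between 43.4 and 55.1 FPKM. It rose in WT by 0.55 to day 8 (SE 0.10, adjusted p = 0.00164) and fell by 0.81 on the log2 scale to day 16 (SE 0.10, adjusted p = 0.000438). At day 16 its WT and 1343KO libraries overlapped. Srebf1 read 14.2 and 16.2, 14.8 and 23.2, and 24.5 and 20.1 FPKM in WT, and 8.87 and 8.40, 14.6 and 7.95, and 10.1 and 8.61 FPKM in 1343KO. It passed in no change over time in either line. Its 1343KO libraries lay below the WT libraries at every day, by a narrow gap at day 8.

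The fatty acid genes split. Acly (ATP citrate lyase), Acaca (acetyl-CoA carboxylase), Fasn (fatty acid synthase) and Elovl6 (the elongase of palmitate) fell from day 0 to day 16 in both lines, while the desaturases rose in WT. Elovl6 (chr3:129532355-129638495) read 57.4 and 57.8 FPKM in WT at day 0, 40.1 and 34.8 at day 8 and 18.8 and 20.3 at day 16. On these days in 1343KO it read 64.3 and 66.9, 48.6 and 44.7, and 43.0 and 48.1 FPKM, above WT in every library of the same day. Over the 16 days it fell by 1.51 in WT (SE 0.09, adjusted p = 8.37e-07) and by 0.52 in 1343KO (SE 0.09, adjusted p = 0.00373), both on the log2 scale. Acaca read 26.1 and 30.5, 22.04 and 20.1, and 11.6 and 8.48 FPKM in WT. Its 1343KO libraries read 23.2 and 23.2, 11.6 and 11.1, and 12.4 and 16.2 FPKM, so that it was already low at day 8 there. Fasn read 66.3 and 66.3, 49.4 and 51.3, and 35.9 and 29.1 FPKM in WT, and 62.8 and 68.0, 38.2 and 39.2, and 43.2 and 43.6 FPKM in 1343KO. All 4 genes fell from day 0 to day 16 in WT (by 0.41 for Acly to 1.51 on the log2 scale) and in 1343KO (by 0.39 for Acly to 0.67 for Acaca). In 1343KO the call for Acly ended without day 0 R2 or day 16 R2 (adjusted p 0.108 and 0.105), and that for Acaca without day 0 R1, day 0 R2 or day 16 R1 (0.06 to 0.101). The 1343KO fall of Acly to day 8 (-0.48, SE 0.10, adjusted p = 0.0067) ended without day 0 R2 (0.0508).

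In log2(FPKM + 1) units the desaturases Scd1 and Scd2 had the largest differences between the lines among the members at day 0 and day 8. By the ratio of 1343KO to WT means at day 8, Stard4 (0.1738) and Sc5d (0.1809) lay below Scd2 (0.1814). Scd1 and Scd2, stearoyl-CoA desaturases that make oleate from stearate, are neighbours on chromosome 19 (chr19:44394451-44407709 and chr19:44293676-44306864), 87586 bases apart. Scd2 read 122 and 123 FPKM in WT at day 0, 309.9 and 310.9 at day 8 and 294 and 295 at day 16. On these days in 1343KO it read 53.7 and 50.7, 58.3 and 54.3, and 81.2 and 85.4 FPKM, so that every 1343KO library lay below every WT library. Scd1 read 27.5 and 28.7 FPKM in WT at day 0, 79.8 and 78.1 at day 8 and 33.0 and 28.9 at day 16. The 1343KO libraries ran from 8.51 to 11.3 FPKM. Scd1 rose in WT to day 8 by 1.46 (SE 0.12, adjusted p = 7.73e-06) and fell back by 1.33 on the log2 scale (SE 0.12, adjusted p = 5.82e-05), while Scd2 rose by 1.34 (SE 0.06, adjusted p = 2.07e-07) and did not pass in the step after it (-0.08, adjusted p = 0.401). In their longest GENCODE M21 transcripts Scd1 and Scd2 share 145 words of 50 bases, which is 3.03% of those of Scd1 and 2.68% of those of Scd2, and how reads in them were assigned is not given in the sources used here.

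Fads1 and Fads2, the delta-5 and delta-6 desaturases of polyunsaturated fatty acids, lie 81384 bases apart on the same chromosome. Fads1 read 19.3 and 18.9, 33.1 and 32.6, and 27.8 and 31.5 FPKM in WT. Its 1343KO libraries read 11.5 and 11.6, 14.8 and 13.7, and 16.6 and 19.3 FPKM. Fads2 read 13.8 and 15.1, 27.5 and 31.8, and 26.4 and 26.8 FPKM in WT. Its 1343KO libraries read 8.20 and 10.6, 18.3 and 17.6, and 26.7 and 27.7 FPKM. Fads2 was the member with the widest span in 1343KO, where its day 16 mean was 2.90 times its day 0 mean and overlapped WT. It rose from day 0 to day 16 by 0.84 in WT (SE 0.12, adjusted p = 0.000277) and by 1.45 in 1343KO (SE 0.12, adjusted p = 5.57e-05).

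Over the whole course most members, like most tested genes, spanned a wider range in WT. The ratio of the highest to the lowest day mean had a median of 2.15 over the 16 sterol enzymes in WT, from 1.27 for Mvk to 4.69 for Sc5d, and of 1.20 in 1343KO, from 1.06 for Hmgcs1 to 1.44 for Sqle. It was wider in WT for 15 of those 16 enzymes and for 25 of all 28 members, against 78.8% of the 14874 tested genes with no day mean at 0, whose median ratios were 2.21 and 1.5. Mvk, Acly and Fads2 were the 3 exceptions, named after their values were seen. The highest of the 6 group means was WT day 8 for 18 members, WT day 16 for 6, WT day 0 for 3 and 1343KO day 0 for 1 (Elovl6). From day 8 to day 16 in WT, 12 of 28 members fell and 1 rose, against 13.5% of all tested genes lower and 14.1% higher. The 1 that rose was Insig1 (0.23, SE 0.07, adjusted p = 0.0447), a call that ended under both other scalings (adjusted p 0.0518 and 0.0827) and without any 1 of 11 libraries (0.0523 to 0.255), WT day 8 R1 being the other. Fdps and Stard4 no longer fell without any 1 of the WT libraries of days 8 and 16 (0.0594 to 0.0879 and 0.0702 to 0.0891), nor Dhcr7 without WT day 8 R2 or day 16 R1 (0.0696 and 0.054).

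Between day 0 and day 16 in WT, 16 of 28 members rose and 5 fell, against 32.7% of all tested genes higher and 28.5% lower (61.2% in either direction). Those that fell were the 4 genes from Acly to Elovl6 and Idi1 (-0.27, SE 0.09, adjusted p = 0.025), and the last was lost without WT day 0 R2 or day 16 R2 (0.141 and 0.165) and under TPM scaling (0.0929). The rise of Fdps ended without WT day 0 R1, day 16 R1 or day 16 R2 (0.0578 to 0.129). That of Lss ended without WT day 0 R1 or R2, day 8 R2, day 16 R1 or R2 or 1343KO day 0 R1 or R2 (0.05 to 0.197). In 1343KO 8 members rose over the same days and 4 fell, against 18.2% of all tested genes higher and 8.6% lower. The 8 were Fdps, Fdft1, Sqle, Insig1, Stard4, Scd2, Fads1 and Fads2. Fdps lost its call without day 0 R2, day 16 R1 or day 16 R2 of 1343KO (0.107 to 0.189), Fdft1 without day 0 R2 or day 16 R1 (0.178 and 0.176) and Insig1 without day 0 R1 or day 16 R1 (0.0506 and 0.056). All 3 calls also ended with median-of-ratios scaling (0.134, 0.167 and 0.0964), under which 5 members rose and 5 fell, as Acat2 then passed as lower (0.0105). That scaling moved the median of all genes by -0.11 here and their split from 2967 higher and 1401 lower to 2256 and 2157. From day 8 to day 16 in 1343KO, Scd2 alone passed, rising by 0.56 (SE 0.06, adjusted p = 0.00415), against 0.602% of all tested genes higher and 0.203% lower (0.804% in either direction). It did not pass without 1343KO day 16 R2 (adjusted p = 0.0551). None fell, and at an unadjusted p under 0.05 in limma 4 members were higher and 1 lower, against 7.82% and 4.69% of all tested genes.

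At day 0, 6 of 28 members were lower in 1343KO than in WT and none was higher, against 2.12% of all tested genes lower and 1.59% higher (3.71% in either direction). At an unadjusted p under 0.05 in limma the counts were 17 lower and 0 higher, against 8.85% and 8.29% of all tested genes. The median difference of the members was -0.31 on the log2 scale and that of all tested genes 0.00. The 6 were Scd2 (-1.21, SE 0.06, adjusted p = 1.37e-05), Scd1 (-1.34, SE 0.12, adjusted p = 0.000469), Fads1 (-0.68, SE 0.10, adjusted p = 0.0092), Insig1 (-0.41, SE 0.07, adjusted p = 0.0182), Fads2 (-0.58, SE 0.12, adjusted p = 0.037) and Cyp51 (-0.41, SE 0.09, adjusted p = 0.0393). Scd1, Scd2, Fads1 and Fads2 are thus 4 of them, and none of Acly, Acaca, Fasn and Elovl6 is. The libraries of the lines did not overlap for 20 members that were lower in 1343KO and for 2 that were higher, and overlapped for 6. Of all tested genes 22.2% were lower and 22.8% higher without overlap. Some cell type markers also differed in 1343KO at day 0. Lower were 2 of 9 visceral endoderm genes (Cubn and Amn), 1 of 7 of the fibroblast list (Pdgfra) and 1 of 6 tested neural genes. Higher was 1 of 8 pluripotency genes (Nanog). Among the neural genes, Sox1 read 10.3 and 9.68 FPKM in WT and 4.27 and 3.94 FPKM in 1343KO. Cubn read 1.43 and 1.51 FPKM and Pdgfra 1.27 and 0.892 FPKM in 1343KO, below the WT values given above, and the part of such cells in the day 0 differences was not tested. Chromosome 19 holds 5 members, 4 of them among the 6. The median difference of its 515 tested genes at day 0 was -0.01.

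Scd1 and Scd2 passed at day 0 under every alternative, including the 4 day 0 libraries alone. The other 4 calls ended in that fit (adjusted p 0.0932 to 0.19), and the count was 2 in it. The count was also 2 without WT day 0 R1 or R2, and 3 without 1343KO day 0 R2. Cyp51 ended without any 1 of the 12 libraries (0.0512 to 0.19) and with the replicate number as a block (0.059). Fads2 ended without any 1 of 11 (0.0515 to 0.196), 1343KO day 0 R2 being the other, Insig1 without any 1 of the 4 day 0 libraries (0.0683 to 0.115), and Fads1 without WT day 0 R1 or R2 or 1343KO day 0 R2 (0.0541 to 0.059).

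At day 8 almost the whole set was lower in 1343KO. Of 28 members, 25 were lower and 1 higher, against 19.6% of all tested genes lower and 23.3% higher, with a median difference of -1.06 for the members and 0.06 for all genes. The libraries did not overlap for 26 members lower in 1343KO and for 1 higher, against 32.5% and 38.3% of all tested genes. Scd1 differed most (-2.94, SE 0.12, adjusted p = 2.44e-07), with a mean in 1343KO of 0.12 times that in WT. It was followed by Scd2 (-2.44, SE 0.06, adjusted p = 2.84e-08), Stard4 (-2.41, SE 0.11, adjusted p = 5.7e-07) and Sc5d (-2.35, SE 0.16, adjusted p = 5.39e-06). All 6 mevalonate enzymes and 9 of 10 enzymes after them were lower. Ebp (-0.46, SE 0.30, adjusted p = 0.249) and Srebf1 (-0.73, SE 0.27, adjusted p = 0.054) did not pass. Srebf1 did pass under both other scalings (0.0358 and 0.0212) and without WT day 8 R1 (0.0273) or 1343KO day 8 R1 (0.00931).

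The 1 higher member at day 8 was Elovl6 (0.31, SE 0.09, adjusted p = 0.0245). This call ended under both other scalings (0.0664 and 0.4), in the 4 day 8 libraries alone (0.0651) and without WT day 8 R2 or 1343KO day 8 R1 (0.165 and 0.13). Without those same libraries Acly (0.0803 and 0.0689) and Fasn (0.063 and 0.0554) did not pass either. Lss ended without WT day 8 R2 or 1343KO day 8 R2 (0.115 and 0.116), and Mvk without any 1 of the 6 WT libraries or 1343KO day 8 R1 (0.0501 to 0.199). TPM scaling moved the median of all genes by -0.12 in this comparison, and their split from 3788 higher and 3185 lower to 2822 and 4131. Relative to that median the members stood at -1.11 as deposited, -1.12 after scaling by median of ratios and -1.22 under TPM scaling.

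**Figure D3:**
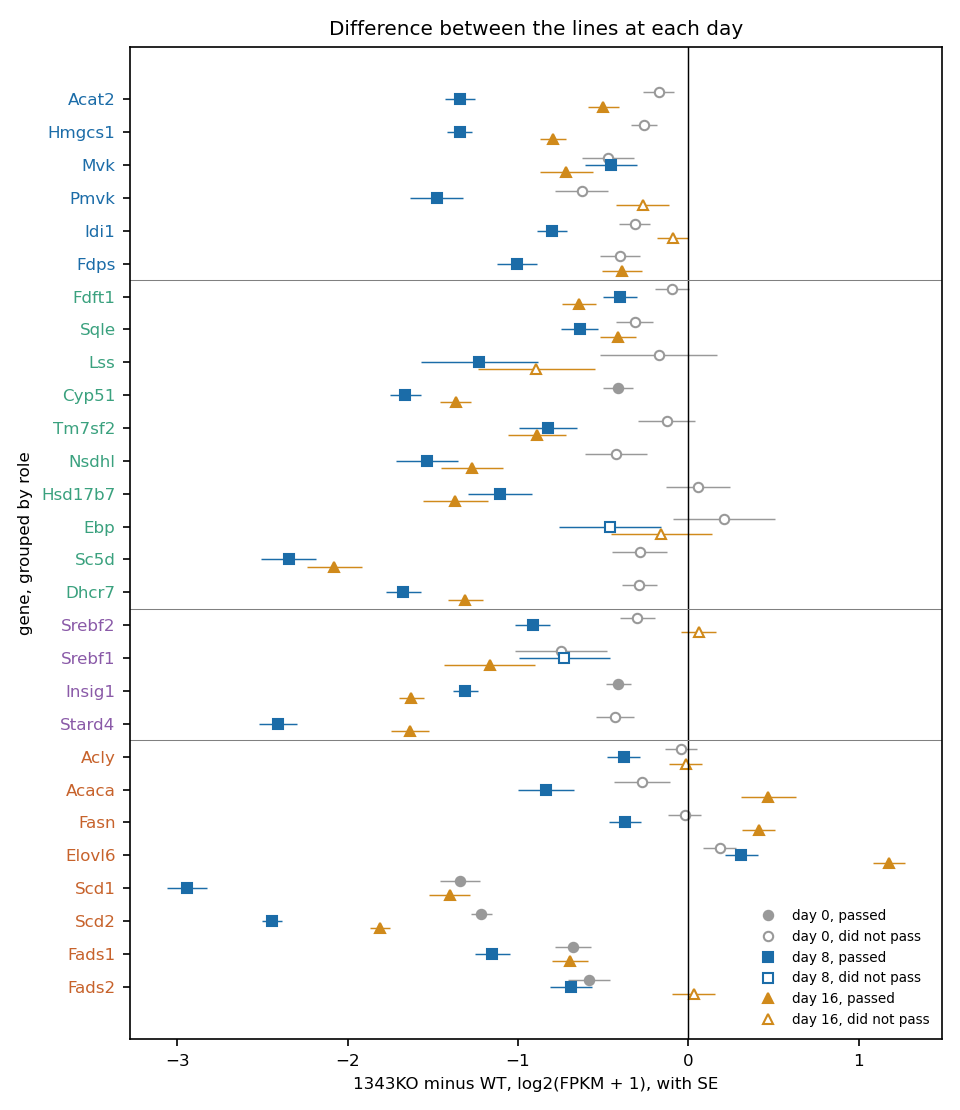
Difference between the lines for each member (y axis) in log2(FPKM + 1) units (x axis, 1343KO minus WT) at day 0 (grey circles), day 8 (blue squares) and day 16 (orange triangles), with SE bars; filled symbols passed the test. Most symbols lie left of 0, the day 8 squares farthest for most members (Scd1 at -2.94). Some, such as Insig1, Hsd17b7 and Srebf1, lie farther left at day 16, and Acaca, Fasn and Elovl6 lie right of 0 then.

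At day 16 the sterol genes were still lower in 1343KO and part of the fatty acid genes were higher. Of 28 members, 18 were lower and 3 higher, against 24.1% of all tested genes lower and 28.5% higher (52.6% in either direction), with medians of -0.71 and 0.07. Among the sterol enzymes 12 of 16 were lower, led by Sc5d (-2.08, SE 0.16, adjusted p = 6.1e-06), Hsd17b7 (-1.37, SE 0.19, adjusted p = 0.000238) and Cyp51 (-1.37, SE 0.09, adjusted p = 2.06e-06). Insig1 (-1.63, SE 0.07, adjusted p = 2.19e-07), Stard4 (-1.64, SE 0.11, adjusted p = 2.68e-06) and Srebf1 (-1.17, SE 0.27, adjusted p = 0.005) were lower too, and Srebf2 did not pass (0.06, SE 0.10, adjusted p = 0.653). The 3 higher members were Elovl6 (1.18, SE 0.09, adjusted p = 7.33e-06), Fasn (0.41, SE 0.10, adjusted p = 0.00517) and Acaca (0.47, SE 0.16, adjusted p = 0.0364). Acaca did not pass without WT day 16 R2 or 1343KO day 16 R2 (0.248 and 0.233), nor under either other scaling (0.103 and 0.108). Fdps ended without any 1 of the 4 day 16 libraries (0.0658 to 0.0756), and Sqle without WT day 16 R1 or 1343KO day 16 R2 (0.0518 and 0.0644). Lss (-0.89, SE 0.34, adjusted p = 0.0529) passed without 1343KO day 8 R1 or R2 (0.0159 and 0.0157) or day 16 R1 (0.0464), and under both other scalings (0.031 and 0.0329). Summed cell division markers (8 genes) were 303 to 343 FPKM in WT and 699 to 706 FPKM in 1343KO at day 16, and their part was not tested.

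The change over time itself was then compared between the lines. From day 0 to day 8 the change in 1343KO was lower than that in WT for 16 of 28 members and higher for none, against 12.7% of all tested genes lower and 15.6% higher. At an unadjusted p under 0.05 in limma these were 20 and 0, against 17.6% and 21.7% of all tested genes. Sc5d (-2.06, SE 0.23, adjusted p = 0.000252), Stard4 (-1.98, SE 0.16, adjusted p = 4.31e-05) and Scd1 (-1.60, SE 0.17, adjusted p = 0.000173) differed most. Fdft1 (-0.30, adjusted p = 0.142) and Sqle (-0.32, adjusted p = 0.147), which rose in both lines, did not pass, and neither did Fads2 (-0.10, adjusted p = 0.706) or the 4 genes from Acly to Elovl6 (adjusted p 0.0843 to 0.517). Calls were lost for Pmvk without WT day 0 R1, WT day 8 R1, 1343KO day 0 R1 or 1343KO day 8 R2 (0.0542 to 0.0655) and for Idi1 without WT day 0 R1, WT day 8 R1, 1343KO day 0 R2 or 1343KO day 8 R2 (0.0641 to 0.0729). Fdps was lost without WT day 0 R1, WT day 8 R1 or R2, 1343KO day 0 R1 or 1343KO day 8 R2 (0.0527 to 0.0776), and Fads1 without any 1 of the 8 libraries of days 0 and 8 (0.0524 to 0.107). Calls were gained for Sqle without 1343KO day 0 R2 (0.0176), Lss without 1343KO day 8 R1 (0.0221), Tm7sf2 without WT day 0 R2 or day 8 R2 (0.0282 and 0.0254) and Fasn without WT day 16 R1 or R2 (0.0318 and 0.0312). TPM scaling moved the median of all genes by -0.14, and their split from 2534 higher and 2071 lower to 1769 and 2611. Under it 22 members passed, all lower, with Fdft1, Sqle, Tm7sf2, Acly, Acaca and Fasn added (0.0159 to 0.0435).

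From day 0 to day 16 the difference of changes was lower in 1343KO for 11 members and higher for 4, against 18.2% and 21.7% of all tested genes. Sc5d (-1.79, SE 0.23, adjusted p = 0.000286), Hsd17b7 (-1.42, SE 0.27, adjusted p = 0.00251) and Insig1 (-1.22, SE 0.10, adjusted p = 2.63e-05) led those lower. Elovl6 (1.00, SE 0.13, adjusted p = 0.000379), Acaca (0.74, SE 0.23, adjusted p = 0.0299), Fads2 (0.62, SE 0.18, adjusted p = 0.0207) and Fasn (0.43, SE 0.14, adjusted p = 0.0298) were the 4. For the first, second and last of these the fall was smaller in 1343KO, and for Fads2 the rise was larger. Of the mevalonate enzymes 1 of 6 passed (Hmgcs1, -0.54, SE 0.11, adjusted p = 0.00346) and of the enzymes from squalene synthase on 7 of 10. Scd1 did not pass (-0.06, SE 0.17, adjusted p = 0.792). Of the 4 higher, Elovl6 passed in every alternative run. Acaca ended without WT day 0 R2, WT day 16 R2, 1343KO day 0 R1 or R2 or 1343KO day 16 R2 (0.0668 to 0.101), and under both other scalings (0.0614 and 0.062). Fasn ended without WT day 0 R1 or R2, WT day 16 R2, 1343KO day 0 R1 or 1343KO day 16 R1 or R2 (0.0656 to 0.0901), and under both (0.109 and 0.094). Fads2 ended without WT day 0 R2, WT day 16 R1, 1343KO day 0 R1 or 1343KO day 16 R2 (0.057 to 0.0662) and with TPM scaling (0.0562). With median-of-ratios scaling 2 members were thus higher and 12 lower, and with TPM scaling 1 and 12, Acat2 being added in both (0.018 and 0.0194). Tm7sf2 ended without WT day 0 R1, 1343KO day 0 R1 or any 1 of the 4 day 16 libraries (0.0535 to 0.0978), and Nsdhl without WT day 0 R1 or R2, WT day 16 R2, 1343KO day 0 R1 or 1343KO day 16 R2 (0.0506 to 0.0869).

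**Figure D4:**
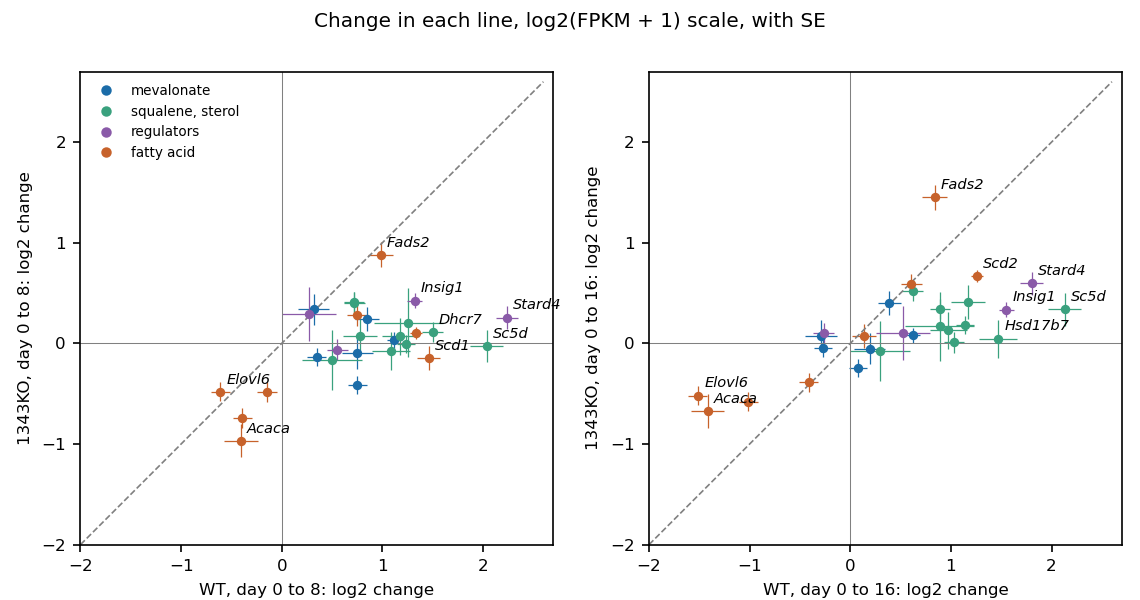
Change of each member in WT (x axis) against its change in 1343KO (y axis), in log2(FPKM + 1) units with SE bars, from day 0 to day 8 (left) and to day 16 (right); colours mark roles and the dashed line marks equal change. In the left panel most sterol enzymes lie to the right of 0 and close to a change of 0 in 1343KO; at day 16 Idi1 and Pmvk lie left of 0, and Fads2, Elovl6 and Acaca lie above the dashed line.

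Of 13 other genes of sterol synthesis, uptake and transport, 9 rose in WT from day 0 to day 8 and none fell (26.8% and 24.5% of all tested genes), with 9 and 0 at an unadjusted p under 0.05 in limma. Npc2, the lysosomal cholesterol carrier (2.13, SE 0.09, adjusted p = 1.97e-07), Soat1, which esterifies cholesterol (1.86, SE 0.12, adjusted p = 2.04e-06), and Scarb1, a lipoprotein receptor (1.78, SE 0.12, adjusted p = 2.08e-06), had the smallest p in WT. These 3 rose in 1343KO too, by 1.48 (SE 0.09, adjusted p = 1.07e-05), 1.06 (SE 0.12, adjusted p = 0.000324) and 1.10 (SE 0.12, adjusted p = 0.000215). At day 8, 11 of the 13 were lower in 1343KO and none was higher (19.6% and 23.3% of all tested genes), also at an unadjusted p under 0.05. Among them was Msmo1 (-1.85, SE 0.16, adjusted p = 2.6e-05). At day 0 the 1 that passed was Msmo1 (-1.06, SE 0.16, adjusted p = 0.00939), a sterol C4-oxidase next to Nsdhl in the route, and it did not pass without WT day 0 R2 (0.0762) or in the 4 day 0 libraries alone (0.12). Msmo1 lies on chromosome 8, whose tested genes had a median difference between the lines of -0.32 at day 0, against 0.01 on the other chromosomes. No member lies on it.

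Genes that carry or retain the SREBP complex were read beside them. Scap, the escort, read 12.4 and 10.1 FPKM in WT at day 0, 7.85 and 8.16 at day 8 and 20.1 and 18.1 at day 16. The 1343KO libraries read 11.9 and 9.03 FPKM at day 0, 10.5 and 10.6 at day 8 and 8.83 and 9.06 at day 16. It fell in WT to day 8 by 0.44 on the log2 scale (SE 0.15, adjusted p = 0.0317), a call that ended without WT day 0 R1, day 8 R1 or day 8 R2 or under TPM scaling (0.0739 to 0.187). Insig2, the paralogue of Insig1, passed in no comparison.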

How the data were processed

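RNA of 12 libraries was poly(A)-selected and sequenced, per the labels' protocols. The deposited table holds FPKM values per gene, made by the authors with Cufflinks 2.1.1 on GRCm38, per the submitters' processing notes. For aligner, annotation, filters and counting strand: not given in the sources used here. Libraries were grouped by title into 2 lines and 3 days. FPKM was turned into log2(FPKM + 1), which understates the change of low genes, and a gene was kept if 2 libraries or more reached 1 FPKM (16289 genes). limma 3.58.1 in R 4.3.3 was fitted with 1 mean per group, a mean-variance trend and 6 residual degrees of freedom, and p-values were adjusted by Benjamini-Hochberg within each of 11 contrasts. Libraries were not rescaled. Alternatives were another pseudocount (0.1), other filters, median-of-ratios and TPM scaling (each library divided by its summed FPKM), a replicate block, robust estimation, each day's 4 libraries alone and leaving out each library.

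Depth was estimated from the steps of low values, with an assumed fragment of 200 bases. The depth taken was the one with the largest share of low values within 5% of a whole number of fragments. That share was 86.1% to 89% by library. As the largest found in the search it is no check of the depth, which is approximate. The day 0 comparison was also simulated over 16289 genes, with normal noise of each gene's own spread or a floor. The changed genes were drawn only from those with a WT day 0 mean of log2(FPKM + 1) above 2. Changes of 0.5, 1 and 2 log2 units were given to 67, 67 and 66 genes. All other genes had equal day 0 means in the 2 lines. Of the genes changed by 0.5, 1 and 2 units, 26.9%, 55.2% and 89.4% were recovered, and 7.32% of calls were false. The data themselves gave 604 calls at day 0, and recovery with more changed genes was not simulated. Recovery of lower genes was not simulated. Members were named by the given list, and their genes and the other lists were chosen with earlier results of these data known. Genes of other lists named in the text were taken by smallest p among those that passed, with Scap, Insig2 and genes named for their levels chosen after their values were seen. Some genes of those lists are not reported here. Coordinates are those of the deposited table counted from 1, of which 98.6% equal GENCODE M21. Figures were drawn with matplotlib 3.10.9.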

Additional observations from a re-analysis of the deposited data

Results flagged for a closer look

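Members are listed here because the test of the difference between the lines in the change over time passed in limma (Benjamini-Hochberg adjusted over 16289 genes). All values are 1343KO change minus WT change in log2(FPKM + 1) units.

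From day 0 to day 8 the difference among mevalonate enzymes was -1.17 for Acat2, -1.08 for Hmgcs1, -0.85 for Pmvk, -0.48 for Idi1 and -0.61 for Fdps. Among the enzymes after squalene it was -1.25 for Cyp51, -1.11 for Nsdhl, -1.16 for Hsd17b7, -2.06 for Sc5d and -1.39 for Dhcr7. It was -0.62 for Srebf2, -0.90 for Insig1 and -1.98 for Stard4. Among desaturases it was -1.60 for Scd1, -1.23 for Scd2 and -0.47 for Fads1.

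From day 0 to day 16 it was -0.54 for Hmgcs1, -0.54 for Fdft1, -0.95 for Cyp51, -0.76 for Tm7sf2, -0.84 for Nsdhl, -1.42 for Hsd17b7, -1.79 for Sc5d and -1.02 for Dhcr7. It was -1.22 for Insig1, -1.20 for Stard4 and -0.59 for Scd2. It was above 0 for Acaca (0.74), Fasn (0.43), Elovl6 (1.00) and Fads2 (0.62).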

How the results depend on the processing

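No member result changed direction while passing under any alternative run. Calls kept in every alternative other than each day's 4 libraries alone were 2 of 6 at day 0, 21 of 26 at day 8 and 18 of 21 at day 16 between the lines, and 21 of 23, 9 of 13 and 18 of 21 in WT (day 0 to 8, 8 to 16 and 0 to 16). In 1343KO they were 5 of 9, 0 of 1 and 7 of 12, and for the difference of changes 12 of 16 and 10 of 15. In the 4 day 0 libraries alone 2 members and 88 genes passed, against 6 and 604. Leaving out 1 library gave 2 to 5 members and 197 to 524 genes at day 0, 5 to 9 members and 2469 to 3663 genes for 1343KO day 0 to 8, and 0 to 1 members and 23 to 133 genes for 1343KO day 8 to 16. It gave 2747 to 4489 genes for WT day 8 to 16 and 2879 to 4294 for 1343KO day 0 to 16. The members of 1343KO day 0 to 8 dropped to 5 without 1343KO day 0 R2. Libraries left out leave 1 sample in a group, assumed to vary like the others.

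Replicate numbers did not pair the samples: over 15 pairs of groups the correlation of deviations ran from -0.036 to 0.036. With the replicate block, the members called were 5 at day 0, 25 at day 8, 22 at day 16 and 12 for WT day 8 to 16. The block ended the calls of Cyp51 at day 0 (0.059), Mvk at day 8 (0.0538) and Insig1 in WT day 8 to 16 (0.0584) and added Lss at day 16 (0.0416).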

Other observations

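Among genes of cholesterol efflux, Apoe, the lipoprotein component, read 271 and 264 FPKM in WT at day 0 and 2749 and 2867 FPKM at day 8, against 658 and 628 FPKM in 1343KO at day 8. It rose in both lines, by 3.39 in WT (SE 0.07, adjusted p = 4.87e-09 in limma) and 1.37 in 1343KO (SE 0.07, adjusted p = 3.84e-06). Abcg1, an efflux transporter, read 0.640 and 0.683 FPKM in WT at day 8 and 5.08 and 5.80 FPKM in 1343KO, a difference of 1.95 (SE 0.16, adjusted p = 1.73e-05). Abca1, another efflux transporter, read 9.76 and 8.59 FPKM in WT at day 16 and 0.998 and 0.754 FPKM in 1343KO, a difference of -2.44 (SE 0.18, adjusted p = 4.9e-06). Of the 6 tested genes of that list, 2 were higher and 2 lower in 1343KO at day 8, and 1 higher and 4 lower at day 16. Of all tested genes 23.3% were higher and 19.6% lower at day 8, and 28.5% and 24.1% at day 16, so with 6 genes the day 8 counts are near those shares.

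Of 23 tested genes of other lipid synthesis, 3 were higher and 10 lower in 1343KO at day 8, and 3 and 11 at day 16, to be read against the same shares of all tested genes. Elovl1, an elongase of very long chains, read 66.1 and 62.8 FPKM in WT at day 8 and 19.1 and 15.1 FPKM in 1343KO (difference -1.86, SE 0.13, adjusted p = 7.31e-06 in limma). Dgat2, which makes triglyceride, read 21.3 and 22.9 FPKM in WT at day 16 and 2.12 and 1.94 FPKM in 1343KO (difference -2.93, SE 0.22, adjusted p = 4.56e-06). Of 10 tested genes of fatty acid oxidation, 4 were higher and 3 lower at day 8 (23.3% and 19.6% of all tested genes). Cpt1a, the mitochondrial entry enzyme, read 12.6 and 10.1 FPKM in WT at day 0, 0.591 and 0.829 FPKM at day 8 and 7.47 and 7.64 FPKM at day 16, while its 6 1343KO values ran from 5.85 to 7.71 FPKM. Its day 8 difference was 2.34 (SE 0.15, adjusted p = 3.22e-06).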
